A study of Mus musculus with 4 samples.

Results

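The Src family kinases were examined in the 2 subpopulations of SOX7-expressing bone marrow cells, sorted as SOX7::GFP high and SOX7::GFP low. The family was taken as 7 listed genes. Probe sets were assigned to a gene where the platform annotation gave that gene as their only name, which gave values for 5 of the 7 genes (*Blk*, *Fyn*, *Fgr*, *Src* and *Yes1*) among 18762 genes tested. *Lyn* and *Lck* were not analysed here. RNA of each subpopulation was measured on 2 Affymetrix mouse exon arrays, 4 in all. The cells came from bone marrow of iSox7 mice, in which doxycycline switches on SOX7 together with GFP from a transgene (labelled as a derivative of Ainv18). Both subpopulations were grown on irradiated OP9 stroma, a mouse bone marrow stromal line, with Kit ligand, interleukin 7 and FLT3, and were sorted on SOX7::GFP and cKIT after 10 to 12 passages. The age of the mice and the number of animals behind each array were not given in the sources used here. Arrays were grouped by the SOX7 level on their labels, although the series description speaks of doxycycline given or withheld. The paper describes both subpopulations among the SOX7::GFP-expressing cells of cultures given doxycycline. On that account the comparison is between SOX7 levels and not between induced and uninduced cells.

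Src family kinases are tyrosine kinases that sit on the inner face of the plasma membrane through lipids attached to their N terminus. Each has an SH3, an SH2 and a kinase domain, and is held shut when a tyrosine in its C-terminal tail is phosphorylated by CSK and released when receptor phosphatases such as CD45 remove that phosphate. In blood cells they start signalling from antigen receptors, Fc receptors and integrins by phosphorylating tyrosine motifs to which SYK or ZAP70 then binds. BLK is a kinase of the B lineage, FYN acts in T cells and in many other cells, FGR is a kinase of myeloid cells, and SRC and YES1 are found in most tissues.

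The promoters of *Fyn* and *Yes1* are shown because both hold the same letters of the EBF core, whereas *Fyn* fell and *Yes1* was not called in the comparison below. Each window is RefSeq sequence of GRCm38.p6, plus strand, from 250 bases before to 50 bases after the start site that the RefSeq promoter table uses, at chr10:39369549-39369848 for *Fyn* and chr5:32610921-32611220 for *Yes1*. That start site is the first base of the gene interval given below for *Yes1* and *Fgr*, but lies 56 bases into it for *Fyn* and 387 bases into it for *Src*. Capitals mark the match to CCCNNGGG, the core bound by the B lineage factor EBF1.
Fyn: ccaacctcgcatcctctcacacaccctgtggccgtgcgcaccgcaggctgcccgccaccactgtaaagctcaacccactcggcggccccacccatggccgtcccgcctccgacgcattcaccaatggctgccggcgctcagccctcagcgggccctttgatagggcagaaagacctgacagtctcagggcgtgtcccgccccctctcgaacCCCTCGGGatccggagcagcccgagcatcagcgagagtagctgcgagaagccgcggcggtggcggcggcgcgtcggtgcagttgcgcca
Yes1: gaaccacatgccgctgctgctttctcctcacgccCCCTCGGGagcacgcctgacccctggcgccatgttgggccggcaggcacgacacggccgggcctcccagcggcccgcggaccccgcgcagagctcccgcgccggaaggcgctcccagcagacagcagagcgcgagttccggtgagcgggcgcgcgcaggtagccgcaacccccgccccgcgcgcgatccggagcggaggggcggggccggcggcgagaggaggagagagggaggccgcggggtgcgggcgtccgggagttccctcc
Promoters of 4 of the 5 kinases were matched in the RefSeq table, and that of *Blk* was not. The EBF core was present once each in those of *Fyn*, *Src* and *Yes1* and was not found in that of *Fgr*. On either strand, 13.7% of 32851 promoters held it. All fixed letters of this core are C or G. The C and G content was 69.0% in *Fyn*, 82.3% in *Src* and 77.0% in *Yes1*, against 62.7% in *Fgr*. The share over all promoters was not matched for this content, so enrichment in the family was not tested. The core began 39 bases before the start site of the window in *Fyn*, 210 bases before it in *Src* and 216 bases before it in *Yes1*. In *Fyn* and *Src* these letters lie inside the gene interval. The SOX core ACAATG (in 12.6% of promoters), the PU.1 letters GAGGAAGT (in 3.20%) and the octamer ATGCAAAT (in 1.74%) were not found in the 4 windows on either strand. A match is a description of the letters and no evidence of binding.

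As checks of the labels, *Sox7* was at 9.52 and 9.63 on the SOX7::GFP high arrays and at 9.07 and 8.90 on the SOX7::GFP low arrays (log2 fold change 0.59, adjusted p = 0.0859 from limma), and *Kit* at 10.2 and 9.91 against 9.24 and 9.12 (log2 fold change 0.89, adjusted p = 0.0464 from limma). All gene values here are the mean log2 value of the probe sets kept, namely those whose second-highest array reached 5.04. The median on each whole array was 3.90 or 3.91. Among probe sets of the kinases, the one nearest the filter from above was of *Src* (second-highest value 5.06) and the one nearest from below of *Fgr* (4.96). A gene was called where its adjusted p over all genes was under 0.05 and its levels differed 2-fold or more. By this rule neither *Sox7* (1.51-fold higher) nor *Kit* (1.85-fold higher) was called. The study calls the arrays biological duplicates but does not say whether their cultures were separate, and the p-values thus cover only the spread among the 4 arrays, which may be technical. Of 14 B lineage markers 13 were measured, and 12 were called lower in SOX7::GFP high cells and none higher. Their mean level was 5.41 and 6.40 on the SOX7::GFP high arrays and 9.68 and 9.52 on the SOX7::GFP low arrays. In bulk RNA, fewer cells of a type and less RNA per cell cannot be told apart.

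In SOX7::GFP high cells *Blk* and *Fyn* were expressed at lower level, and no kinase of the family was called higher. The fall was 2.15-fold for *Fyn*. For *Blk* the kept probe sets gave 5.17-fold, but its SOX7::GFP high values lay under the filter value, and the log2 fold change ran from -3.48 to -1.14 with the choice of filter. *Fgr*, *Src* and *Yes1* did not pass. Over all genes tested, 3.24% were called lower and 3.61% higher (6.85% in either direction), beside which 2 of 5 kinases were called lower. The study itself chose *Blk* as an example of a falling gene on these arrays, so that its call is not independent evidence. Over the 5 kinases the median log2 fold change was -0.94, against 0.047 over all genes. This median is the value of *Fgr*, which was -0.655 with no filter, so its size also moved with the filter. The arrays of the subpopulations did not overlap, with lower values in SOX7::GFP high cells, for *Blk*, *Fyn*, *Fgr* and *Src*, as for 22.2% of all genes, while 54.4% of all genes did not overlap in either direction.

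**Figure D1:**
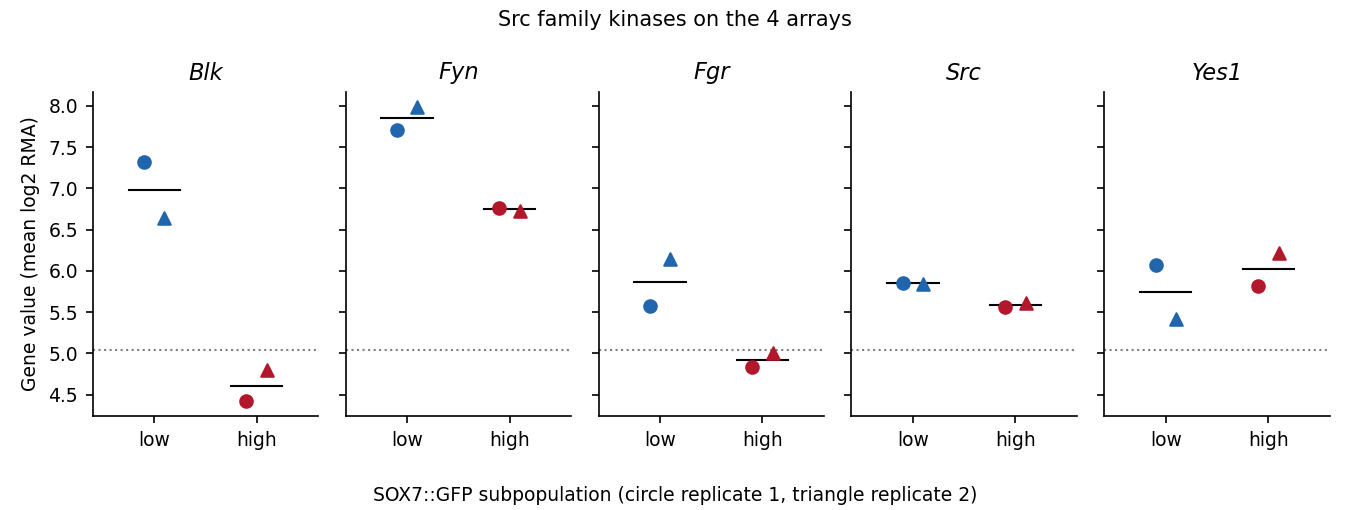
Gene value (mean log2 value of the kept probe sets) of each Src family kinase on the 4 arrays; circles are replicate 1, triangles replicate 2, bars the mean of 2 arrays, and the dotted line the filter value of 5.04. *Blk* and *Fyn* lie lower on both SOX7::GFP high arrays, and *Yes1* overlaps between subpopulations.

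*Blk* (GRCm38.p6 chromosome 14, 63372837 to 63417187), the kinase that pairs with the pre-B-cell and B-cell receptors, was at 4.42 and 4.80 on the SOX7::GFP high arrays and at 7.32 and 6.64 on the SOX7::GFP low arrays. Both SOX7::GFP high values lay under the filter value and well apart from the other pair. The means were 4.61 ± 0.27 (SD, n = 2 arrays) and 6.98 ± 0.48 (SD, n = 2), which gave a log2 fold change of -2.37 (standard error 0.28, 95% confidence interval -3.11 to -1.63, adjusted p = 0.0146 from limma). The call was lost without SOX7::GFP high replicate 1 (adjusted p = 0.0880 from limma) and without SOX7::GFP high replicate 2 (adjusted p = 0.0735 from limma), while the log2 fold change ran from -2.71 to -2.03 with 1 array left out. The order of the arrays for *Blk* was the same as for the mean of the B lineage markers given above. The part of the share of B lineage cells in this difference was not tested.

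The 14 probe sets of *Blk* differed much in size of change. All 14 were lower in SOX7::GFP high cells, and 12 of them were kept by the filter. These 12 had differences from -4.41 to -0.51, with a median of -2.28, and the arrays did not overlap in 11 of them, as in 21.2% of all probe sets kept. Tested one by one over 191615 probe sets, 5 of the 12 were called lower, against 1.77% of all probe sets (4.02% in either direction). The largest difference was that of probe set 5346560, at 3.54 and 4.81 on the SOX7::GFP high arrays and at 8.97 and 8.20 on the SOX7::GFP low arrays. The smallest among those kept was that of probe set 5113864, at 5.56 and 6.09 against 6.76 and 5.91, where the arrays overlapped. In 9 of the 12 probe sets both SOX7::GFP high arrays were under 5.04, so that the background of the array bounds the size of the fall there. Such a probe set was kept only where both SOX7::GFP low arrays reached 5.04. The lack of overlap in these 9 thus followed from the filter, and the count of 11 of 12 is not independent evidence of a fall. The filter likewise favours calls among these 9.

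The size of the *Blk* fall moved with the filter. With the 3 probe sets at or above the filter value on all 4 arrays the log2 fold change was -1.14 (adjusted p = 0.0444 from limma), and with the 3 probe sets of a stricter filter it was -3.48 (adjusted p = 0.00108 from limma). The gene was called lower in both. Because a probe set of *Blk* mostly passed the filter through its SOX7::GFP low values, the kept probe sets favour a difference. With no filter, over all 14 probe sets, the log2 fold change was -2.09 (adjusted p = 0.0145 from limma).

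*Fyn* (chromosome 10, 39369743 to 39565381), a kinase of T-cell receptor and adhesion signalling whose promoter is printed above, was at 6.77 and 6.72 on the SOX7::GFP high arrays and at 7.71 and 7.99 on the SOX7::GFP low arrays. Unlike *Blk*, it stayed above the filter value on all 4 arrays. The means were 6.75 ± 0.030 (SD, n = 2 arrays) and 7.85 ± 0.20 (SD, n = 2), which gave a log2 fold change of -1.10 (standard error 0.16, 95% confidence interval -1.52 to -0.69, adjusted p = 0.0235 from limma). The interval includes changes under 2-fold. The call was lost in each of the 4 fits with 1 array left out, with adjusted p = 0.119 and 0.130 from limma without SOX7::GFP high replicates 1 and 2 and adjusted p = 0.0543 and 0.0925 without SOX7::GFP low replicates 1 and 2. The log2 fold change ran from -1.24 to -0.96 in these fits. SOX7::GFP low replicate 2 was the higher of its pair for *Fyn* and the lower for *Blk*.

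The fall of *Fyn* was of like size over most of its probe sets. Of 20 probe sets 18 were kept, 17 of these were lower in SOX7::GFP high cells and 1 was higher, and the arrays did not overlap in 16, all lower, beside 21.2% of all probe sets kept. The differences of the 18 ran from -1.89 to 0.16, with a median of -1.09. The brightest, probe set 5529442, was at 8.71 and 8.65 on the SOX7::GFP high arrays and at 9.87 and 9.86 on the SOX7::GFP low arrays. Only probe set 4314829 was called when tested singly, at 5.86 and 6.09 against 7.42 and 7.95 (difference -1.71, adjusted p = 0.0465 from limma over probe sets), and 15 of the 18 were lower at an unadjusted p under 0.05 in the same fit, beside 8.34% of all probe sets kept. The probe set that was higher, 4858624, was dim and overlapped, at 5.69 and 4.95 against 5.40 and 4.92. The 2 probe sets under the filter lay between 3.05 and 4.13 on all arrays and differed by -0.15 each. Probe sets of 1 gene share the same RNA and are not replicates, and the files do not say which exon each one covers.

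**Figure D2:**
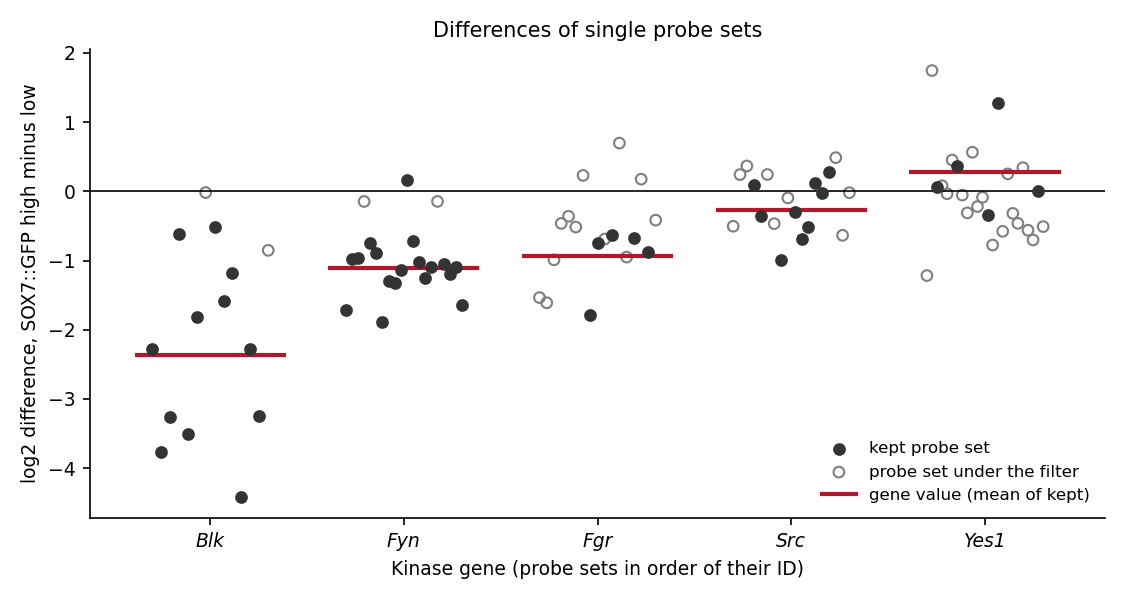
Difference of each probe set (mean of SOX7::GFP high minus mean of SOX7::GFP low, log2) for the 5 kinases; filled points were kept, open points fell under the filter, and red bars give the gene value. The 12 kept probe sets of *Blk* spread from -4.41 to -0.51, whereas most of the 18 of *Fyn* lie near their median of -1.09.

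*Fgr* (chromosome 4, 132974095 to 133001893), the myeloid kinase of the family, was at 4.84 and 5.00 on the SOX7::GFP high arrays and at 5.58 and 6.14 on the SOX7::GFP low arrays. The pairs did not overlap, but 2 of the 4 values lay under the filter value. The log2 fold change of -0.94 (standard error 0.23, 95% confidence interval -1.54 to -0.34, adjusted p = 0.0828 from limma) did not pass. Only 5 of its 17 probe sets were kept, and all 5 were lower in SOX7::GFP high cells, by 0.63 to 1.79 on the log2 scale. The widest, probe set 5091364, was at 4.82 and 5.26 against 6.39 and 7.28. Of the 12 dim probe sets 9 were lower and 3 higher. With no filter the log2 fold change of *Fgr* was -0.655 (adjusted p = 0.0698 from limma). Of 15 granulocyte and macrophage markers 14 were measured, with 3 called lower (*Ngp*, *Ltf* and *Camp*, all of neutrophil granules) and none higher. The mean level of the 14 was 7.87 and 7.03 on the SOX7::GFP high arrays and 8.96 and 8.99 on the SOX7::GFP low arrays. The 3 called genes, with log2 fold changes of -5.75, -4.69 and -4.52, weigh heavily in this mean. Over the 14 the median log2 fold change was -0.85, and the highest was 0.55 (*Lyz2*). The part of these markers in the *Fgr* values was not tested.

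**Figure D3:**
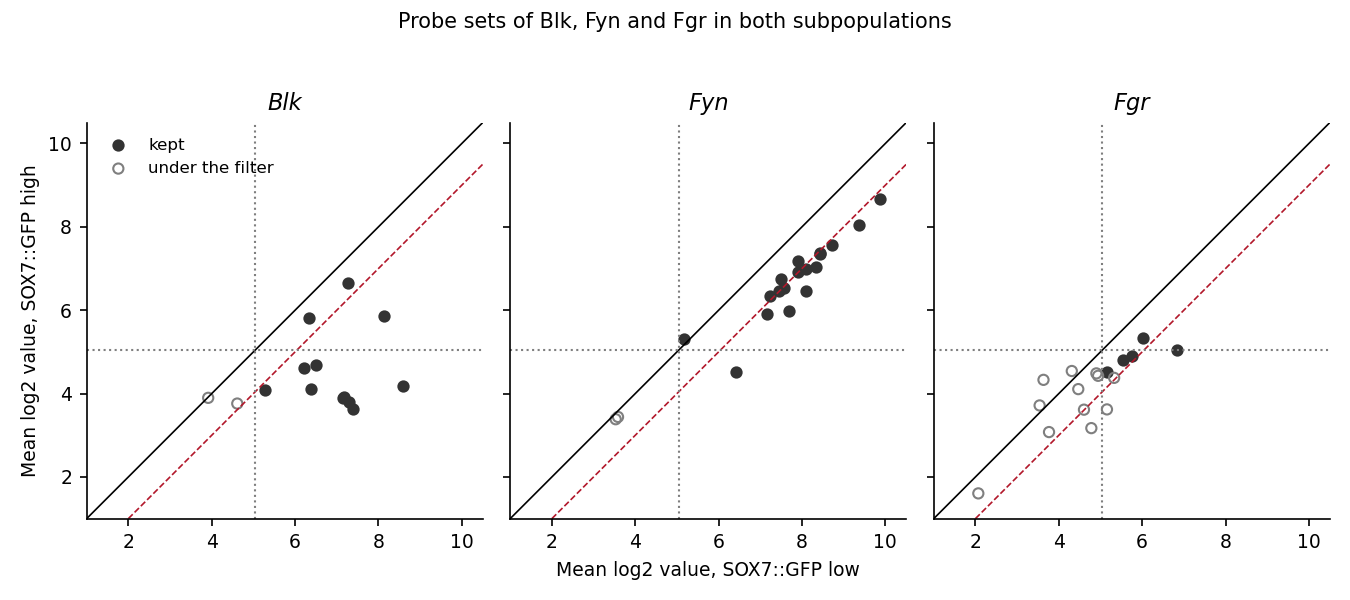
Mean log2 value of each probe set in SOX7::GFP low cells (horizontal axis) and SOX7::GFP high cells (vertical axis) for *Blk*, *Fyn* and *Fgr*; the solid line marks equal values, the dashed line a 2-fold fall and the dotted lines the filter value of 5.04. In *Blk*, 9 of 12 kept probe sets had both SOX7::GFP high arrays under the filter value, and in *Fyn* none of 18 did.

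*Src* (chromosome 2, 157423906 to 157471838), the founding member, was at 5.56 and 5.61 on the SOX7::GFP high arrays and at 5.86 and 5.84 on the SOX7::GFP low arrays. Its pairs were tight and apart, yet the log2 fold change was only -0.26 (standard error 0.13, 95% confidence interval -0.61 to 0.08, adjusted p = 0.321 from limma). The interval, from the 9 of 18 probe sets kept, leaves out a 2-fold change in either direction. Of its 9 kept probe sets 6 were lower and 3 higher, from -0.99 to 0.28. Probe set 5059963 had the widest gap, at 5.03 and 5.64 against 6.38 and 6.27, and probe set 5400005, the brightest, was at 7.18 and 6.76 against 6.79 and 6.59.

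*Yes1* (chromosome 5, 32611171 to 32687066), the close relative of *Src*, was at 5.82 and 6.22 on the SOX7::GFP high arrays and at 6.07 and 5.42 on the SOX7::GFP low arrays, so that the subpopulations overlapped. The log2 fold change of 0.28 (standard error 0.28, 95% confidence interval -0.45 to 1.01, adjusted p = 0.630 from limma) turned to -0.050 without SOX7::GFP low replicate 2 and to -0.043 with no filter. Only 5 of 24 probe sets were kept. Of these, probe set 5116858 stood apart from the rest, at 5.16 and 5.61 on the SOX7::GFP high arrays and at 4.27 and 3.95 on the SOX7::GFP low arrays (difference 1.28, adjusted p = 0.0814 from limma over probe sets). The other 4 kept probe sets differed by -0.34 to 0.37 and overlapped. Of the 19 dim probe sets 13 were lower and 6 higher.

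The genes whose values followed each kinase most closely over the 4 arrays were found by the Euclidean distance between mean-centred log2 values. For *Blk* they were *Gpam*, an acyltransferase gene of glycerolipid synthesis (distance 0.197), *Ankrd33b* (0.249) and *Vat1l* (0.255). For *Fyn* they were *Ero1b*, which encodes an oxidase of the endoplasmic reticulum (0.0552), *6430571L13Rik* (0.057) and *Heg1* (0.0637). The nearest to *Fgr* were *Prkaa2*, which encodes a catalytic subunit of AMP-activated kinase (0.135), *Ms4a14* (0.142) and *Cd22* (0.155), those to *Src* were *Tapbpl* (0.0165), *2300002M23Rik* (0.0171) and *Ifitm5* (0.0233), and those to *Yes1* were *Mboat4* (0.0133), *Lgals7* (0.049) and *H2-M10.3* (0.050). With 4 arrays such likeness describes these values only.

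Around the kinases, 101 of 106 genes in 9 lists of regulators, receptors and substrates were measured, of which 13 were called higher and 15 lower in SOX7::GFP high cells. This was 12.9% higher and 14.9% lower, beside 3.61% and 3.24% of all genes, with a median log2 fold change of -0.081 against 0.047 over all genes. The lists were written from known roles but with earlier results of these data known, so these shares are not independent evidence. The share over all genes was not matched for expression in blood cells. The lists also include receptors of the B lineage and other cell types whose markers moved. With 1 array left out, the numbers called higher and lower were 2 and 6 without SOX7::GFP high replicate 1, 4 and 8 without SOX7::GFP high replicate 2, 8 and 5 on dropping SOX7::GFP low replicate 1, and 6 and 6 on dropping SOX7::GFP low replicate 2. Of the 28 genes called, 4 were called in all 4 of these fits (*Cd36*, *Cish*, *Fyb* and *Lcp2*) and 8 in none (*Cd22*, *Cd300a*, *Clnk*, *Dok2*, *Pecam1*, *Pstpip1*, *Ptprj* and *Siglece*).

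**Figure D4:**
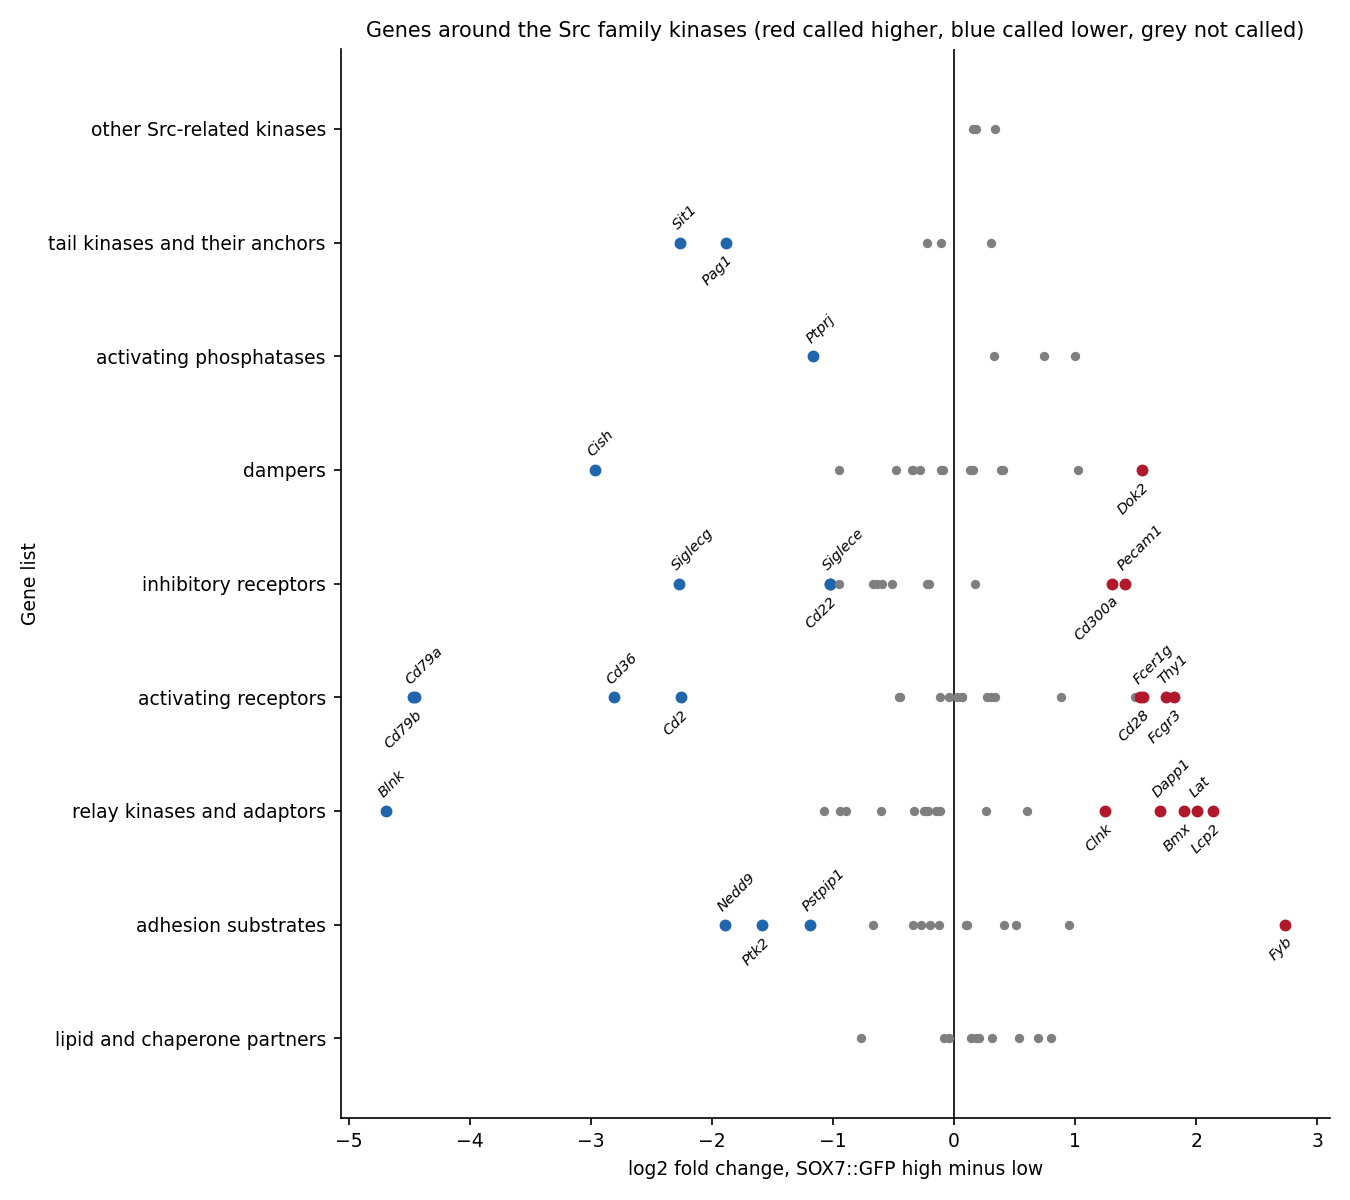
Log2 fold change (SOX7::GFP high minus SOX7::GFP low) of the 101 measured genes in 9 lists around the Src family kinases, 1 row per list; red points were called higher, blue points lower and grey points were not called. *Blnk*, *Cd79a* and *Cd79b* lie farthest to the left and *Fyb* farthest to the right.

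Among genes that keep the kinases shut, *Csk*, which encodes the tail kinase, was not called (log2 fold change -0.11, adjusted p = 0.698 from limma), nor was its relative *Matk* (-0.22, adjusted p = 0.442). Of the 5 genes of this list 2 fell and none rose. *Pag1*, which encodes an adaptor that binds CSK at the membrane, was at 5.41 and 5.50 on the SOX7::GFP high arrays and at 7.24 and 7.44 on the SOX7::GFP low arrays (log2 fold change -1.89 with a standard error of 0.15, adjusted p = 0.00628 from limma), and lost its call in the fit lacking SOX7::GFP high replicate 1. *Sit1*, which encodes a lymphocyte adaptor, was at 5.28 and 4.30 against 6.93 and 7.18 (-2.26, adjusted p = 0.0285), and of the 4 fits it was called only without SOX7::GFP high replicate 1. In both genes the subpopulations lay apart. Of 4 receptor phosphatases that can open the kinases, *Ptprj* (CD148) fell by 1.16 on the log2 scale (adjusted p = 0.0202 from limma). None was called higher, yet the median log2 fold change of the 4 was 0.54. *Ptpre* (0.998, adjusted p = 0.0545 from limma) and *Ptpra* (0.745, adjusted p = 0.0925) were higher but did not pass. *Ptprc* (CD45) was at 9.22 and 8.97 against 8.65 and 8.89 (0.33, adjusted p = 0.339).

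Of 14 genes that dampen the signals, 1 rose and 1 fell. *Cish*, which encodes an inhibitor of cytokine signals, was at 5.74 and 5.81 on the SOX7::GFP high arrays and at 8.81 and 8.68 on the SOX7::GFP low arrays (log2 fold change -2.97 with a standard error of 0.14, adjusted p = 0.00353 from limma). *Dok2*, an adaptor gene of myeloid and T cells, rose by 1.55 (adjusted p = 0.0193). The phosphatase gene *Inpp5d* (SHIP1) passed the test but not the 2-fold threshold, with -0.95 (adjusted p = 0.0306). Of 13 receptors with inhibitory tyrosine motifs, 3 fell and 2 rose. The B-cell lectin receptor genes *Siglecg* (-2.27, adjusted p = 0.00585) and *Cd22* (-1.03, adjusted p = 0.0464) and the myeloid *Siglece* (-1.02, adjusted p = 0.0327) were lower, and *Pecam1* (1.41, adjusted p = 0.0154) and *Cd300a* (1.30, adjusted p = 0.0201) were higher, all from limma. *Siglecg* was not called without SOX7::GFP high replicate 1.

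Receptor chains and co-receptors that use these kinases changed in both directions, with 4 higher, 4 lower and 12 not passing. The signalling chains of the B-cell receptor, to which BLK couples, fell most. *Cd79a* was at 6.24 and 7.75 on the SOX7::GFP high arrays and at 11.6 and 11.4 on the SOX7::GFP low arrays (log2 fold change -4.47, adjusted p = 0.0128 from limma). *Cd79b* (-4.46), the scavenger receptor gene *Cd36* (-2.81) and the lymphocyte adhesion gene *Cd2* (-2.25) also fell. The Fc receptor genes *Fcgr3* (1.82) and *Fcer1g* (1.54), the T-cell co-stimulator gene *Cd28* (1.56) and *Thy1* (1.75), which encodes a surface protein of T cells and progenitors, rose. *Fcer1g*, the signalling chain of Fc receptors, was at 11.5 and 11.3 against 9.76 and 9.94 (adjusted p = 0.00961 from limma). The T-cell receptor chain genes *Cd3e* (0.067) and *Cd247* (-0.45) were not called, and of 14 T lineage markers 13 were measured, with 3 called higher (*Tcf7*, *Lat* and *Cd28*) and none lower. Of these 8 genes, *Cd36* was called in each fit with 1 array left out, *Fcgr3* in all but that without SOX7::GFP high replicate 1, *Cd79a* and *Cd79b* only without a SOX7::GFP high array, *Fcer1g* and *Thy1* only without a SOX7::GFP low array, *Cd2* only without SOX7::GFP high replicate 2 and *Cd28* only without SOX7::GFP low replicate 1.

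Next in the relay, 5 genes rose, 1 fell and 12 did not pass. The B-cell adaptor gene *Blnk*, a SYK substrate, was at 5.58 and 7.23 on the SOX7::GFP high arrays and at 11.3 and 10.9 on the SOX7::GFP low arrays (log2 fold change -4.70, adjusted p = 0.0145 from limma). The adaptor gene *Lcp2* (SLP-76), used by T cells, platelets and mast cells, was at 9.59 and 9.58 against 7.34 and 7.55 (2.14, standard error 0.15, adjusted p = 0.0056 from limma). The membrane adaptor gene *Lat* was at 8.34 and 8.79 against 6.90 and 6.21 (2.01, adjusted p = 0.0249), and *Bmx* (1.90), *Dapp1* (1.70) and *Clnk* (1.25), which encode a Tec family kinase and adaptors, also rose. Only *Lcp2* of these 6 was called in each fit with 1 array left out. *Blnk* was not called without either SOX7::GFP low array, *Dapp1* not on dropping either SOX7::GFP high array, *Lat* only without SOX7::GFP low replicate 1 and *Bmx* only without SOX7::GFP high replicate 2. The receptor-proximal kinase genes *Syk* (-0.94, adjusted p = 0.053) and *Btk* (-0.60, adjusted p = 0.0682) did not pass.

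Of 14 adhesion and cytoskeletal substrates, 1 rose and 3 fell. *Fyb* (ADAP), an adaptor that FYN phosphorylates, was at 8.86 and 8.89 on the SOX7::GFP high arrays and at 6.01 and 6.27 on the SOX7::GFP low arrays (log2 fold change 2.73 with a standard error of 0.16, adjusted p = 0.00404 from limma), a change opposite to that of *Fyn*. The docking protein gene *Nedd9* (-1.90), the focal adhesion kinase gene *Ptk2* (-1.58) and *Pstpip1* (-1.19) fell. *Nedd9* lost its call on dropping either SOX7::GFP high array, and *Ptk2* was called only without SOX7::GFP low replicate 2. The 10 lipid-transfer, raft and chaperone partners gave no call in limma, with log2 fold changes from -0.77 (*Unc119b*) to 0.80 (*Unc119*), the former encoding a relative of the latter, a lipid-binding chaperone of Src family kinases. Both had an adjusted p under 0.05 (0.0480 and 0.0404) but changed less than 2-fold. Of the related kinase genes, *Frk*, *Srms* and *Ptk6* had log2 fold changes of 0.34, 0.18 and 0.16 and none passed (adjusted p = 0.234 to 0.844 from limma).

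Markers of the other cell types that the sort could hold are given for comparison. Megakaryocyte markers were called higher in 5 of 8 and mast cell and basophil markers in 3 of 8, none lower. The mean level of the megakaryocyte markers was 7.27 and 7.64 on the SOX7::GFP high arrays and 5.64 and 5.85 on the SOX7::GFP low arrays. That of the mast cell and basophil markers was 8.49 and 7.71 against 6.74 and 6.59. Of 12 natural killer and innate lymphoid markers, 3 were higher and 2 lower. Of 11 measured stromal markers, 1 (*Fbn1*) was higher and none lower, with a mean of 6.91 and 6.89 against 6.78 and 6.14. Of 5 measured erythroid markers and 9 reference genes none was called in limma, with 1 of the reference genes at an unadjusted p under 0.05. The part of these cell types in the values above was not tested.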

How the data were processed

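Values came from 4 Affymetrix mouse exon 1.0 ST arrays, 2 per SOX7::GFP subpopulation. The deposited table holds log2 values for 1236087 probe sets, which the authors background-adjusted and normalized with RMA (robust multi-array average, version not given in the sources used here), with no detection scores in that table. Platform annotation gave 321091 probe sets 1 symbol, 7796 several and 907200 none. Of 22378 symbols 18054 were current in the GRCm38.p6 gene table and 4259 were updated through synonyms. Probe sets with a second-highest value of 5.04 or more (191615) were averaged per gene, a median of 7 per gene. Limma 3.58.1 (R 4.3.3) fitted both groups over all 18762 genes, with Benjamini-Hochberg adjustment, and genes with an adjusted p under 0.05 and at least 2-fold change were called. Student's t-test, which the paper names for its data in general, was an alternative. The fit was run on simulated data drawn with its own estimated spread. That checks the code and cannot show whether the calls made here hold. Across genes, r was 0.961 and 0.958 between arrays of 1 subpopulation, against 0.859 to 0.865 between groups. Precision is limited by the small number of arrays.

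The kinases and lists were chosen with earlier results of these data known. Genes named are the kinases, *Sox7* and *Kit*, the called genes of each list (up to 4 per direction, or all where 5 or fewer), uncalled key regulators chosen after their values were seen, and the 3 nearest genes per kinase. Alternatives were no filter, a stricter filter, probe sets above the filter on all arrays, the median, a minimum of 3 probe sets, a test per probe set, further quantile normalization, centring on reference genes, a trend with robust fit, the methods' t-test, a replicate block, each array left out and no fold threshold.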

Additional observations from a re-analysis of the deposited data

How the results depend on the processing

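*Fgr* and *Src* kept their direction and were not called under any of the 15 alternatives that gave them a value, and no probe set of *Fgr*, *Src* or *Yes1* passed the stricter filter. With a minimum of 3 probe sets per gene *Fgr* had an adjusted p of 0.0380 (limma) but stayed under 2-fold. *Blk* was lower in all 16 alternatives and called in 12. *Fyn* was lower in all 16 and called in 9. Under the methods' t-test, with the same log2 fold changes of -2.37 and -1.10, neither was called after Benjamini-Hochberg adjustment (adjusted p = 0.222 and 0.195 over all genes). That test called 0 genes, 0 kinases and 0 genes of the lists in either direction, with 3504 genes at an unadjusted p under 0.05. With the median of probe sets *Fyn* was at -1.13 (adjusted p = 0.0566 from limma), leaving 1 kinase called. Tested per probe set, taking a gene as called where most of its probe sets were, neither *Blk* (median -2.28) nor *Fyn* (-1.09) passed. *Yes1* turned to -0.043 with no filter and, with 1 array left out, ran from -0.0501 to 0.60. With 1 array left out, *Blk* ran from -2.71 to -2.03, *Fyn* from -1.24 to -0.96, the kinases called lower from 0 to 1, all genes called higher from 145 to 406 and lower from 166 to 313, and list genes called higher from 2 to 8 and lower from 5 to 8. The cause of these changes was not tested beyond the fewer samples fitted. The fit with a replicate block called 704 genes higher and 642 lower, and kept both kinases (adjusted p = 0.0273 for *Blk* and 0.0399 for *Fyn* from limma). Deviations of arrays with the same number correlated at 0.104 across genes, with only 2 pairs, so the numbers were not taken as pairs. The replicate block changed the call of no kinase. Values near the array background bound the changes of *Blk* and *Fgr*, whose SOX7::GFP high gene values lay under the filter value. The gene values of *Src* and *Yes1* lay above it on all 4 arrays. Even so, 9 of 18 probe sets of *Src* and 19 of 24 of *Yes1* fell under the filter, so their changes rest on the brighter probe sets.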
